A study of Homo sapiens with 4 samples.

Results

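Potassium channel genes were taken as every gene in the authors' deposited table of acetylated chromatin regions whose symbol starts with KCN, which covers the pore-forming subunits and their regulators. The rule gave 84 of 17301 genes and 640 of 91107 regions. The data come from A375, an established human melanoma cell line. Chromatin immunoprecipitation sequencing was done for acetylation of histone H3 at lysine 27 (H3K27ac), a mark of active promoters and enhancers. The labels give 2 libraries of cells kept in vehicle (isopropanol) and 2 of cells that received 1 mM octanoate, a fatty acid of medium length, and both arms lasted 48 hours. Cells were grown in DMEM with serum, no gene was altered, and the labels do not say whether the 2 libraries of a group came from separate cultures, so p-values may measure technical spread only. The question set by the design is where the mark differs between octanoate and vehicle.

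The table holds 1 mean level, 1 log2 fold change with its standard error (SE) and 1 p-value for each region over the libraries, and no value per library. Depth is therefore unknown, no value can be shown by sample, and no test could be run on the spread between the libraries. The table does not name the numerator of the fold change, so a change is called positive or negative, never a gain or a loss. Every fold change, SE, p-value and mean level below comes from the authors' deposited table unless a recomputation is named, and fold changes are on the log2 scale throughout. A region was called where the authors' deposited table has an adjusted p-value under 0.05. Regions with a mean level of 18.4 or lower carry no adjusted p-value and are described as untested. The distance is that of the authors' deposited table between a region and the gene named with it, 0 where the region covers the start, and negative where the start lies at lower coordinates. It names a nearby gene and not a target. As a check of the label, all 11 melanocyte and melanoma markers looked for had a region, 7 of them over the start (MITF, SOX10, PMEL, S100B, S100A1, NES and AXL, but not MLANA, TYR, DCT or TYRP1). Of 17 markers of other lineages, 15 had a region and 6 had one over the start: EPCAM, KRT8, KRT18, APOA1, SYT1 and SNAP25. Their part in the results was not tested.

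Potassium channels let potassium ions pass the membrane along their gradient, which sets the resting potential and ends action potentials. Voltage-gated channels open on depolarization and are built from alpha subunits, some of which form no channel alone and modify others, with auxiliary subunits beside them. Inward rectifiers and 2-pore-domain channels hold the resting potential, and calcium- or sodium-activated channels couple potassium flow to ions inside the cell. In tumour cells, potassium channels are known for links to cell volume, proliferation and migration.

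The promoters below are those on which the account of gene starts turns. They are RefSeq sequences of GRCh38.p14, each running from 250 bases before to 50 bases after an annotated start, printed 5′ to 3′ on the gene's strand. Capitals mark matches, on either strand, to the motifs searched. KCNC4 (chr1:110210064-110210363, plus strand) and KCNH8 (chr3:19148260-19148559, plus strand) lie in the start regions with the largest fold changes among those with an adjusted p-value. KCNF1 (chr2:10911684-10911983, plus strand) has the largest fold change of any start region, untested. KCNT2 (chr1:196608391-196608690, minus strand) and KCNN4 (chr19:43780924-43781223, minus strand) lie in start regions of high level per kb. KCNMA1 is shown at its main start (chr10:77637759-77638058, minus strand) and at a start inside the gene (chr10:77350712-77351011, minus strand), which lies in one of its widest regions. 
KCNC4: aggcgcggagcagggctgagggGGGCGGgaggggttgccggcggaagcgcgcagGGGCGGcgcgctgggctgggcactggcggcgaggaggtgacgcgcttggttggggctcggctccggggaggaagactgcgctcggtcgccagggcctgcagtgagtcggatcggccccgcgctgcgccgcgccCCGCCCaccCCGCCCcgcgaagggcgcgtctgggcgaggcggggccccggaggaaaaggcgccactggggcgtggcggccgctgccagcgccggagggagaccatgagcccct
KCNH8: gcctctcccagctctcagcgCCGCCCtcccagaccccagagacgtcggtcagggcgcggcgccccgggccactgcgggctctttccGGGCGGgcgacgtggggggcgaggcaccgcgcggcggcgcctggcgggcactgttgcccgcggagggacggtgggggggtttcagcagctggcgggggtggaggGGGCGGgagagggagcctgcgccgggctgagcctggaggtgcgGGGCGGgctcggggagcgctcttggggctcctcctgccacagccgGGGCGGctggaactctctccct
KCNF1: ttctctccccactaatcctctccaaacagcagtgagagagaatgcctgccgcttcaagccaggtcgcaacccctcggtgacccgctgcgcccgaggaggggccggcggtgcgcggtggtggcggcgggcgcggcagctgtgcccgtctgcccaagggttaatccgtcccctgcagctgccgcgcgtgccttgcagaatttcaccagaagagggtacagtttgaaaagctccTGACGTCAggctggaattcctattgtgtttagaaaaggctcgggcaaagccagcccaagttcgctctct
KCNT2: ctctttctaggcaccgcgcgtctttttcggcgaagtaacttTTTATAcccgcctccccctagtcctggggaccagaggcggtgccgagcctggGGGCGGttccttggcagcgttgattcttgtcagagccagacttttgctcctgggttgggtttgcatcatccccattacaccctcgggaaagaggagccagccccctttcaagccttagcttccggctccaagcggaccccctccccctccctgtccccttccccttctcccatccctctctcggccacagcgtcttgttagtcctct
KCNN4: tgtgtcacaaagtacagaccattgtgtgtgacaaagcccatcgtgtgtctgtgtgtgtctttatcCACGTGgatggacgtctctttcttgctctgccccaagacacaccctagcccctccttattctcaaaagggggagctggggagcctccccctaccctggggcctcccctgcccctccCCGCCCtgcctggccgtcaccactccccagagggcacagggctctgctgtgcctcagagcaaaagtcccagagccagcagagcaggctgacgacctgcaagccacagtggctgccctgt
KCNMA1, main start: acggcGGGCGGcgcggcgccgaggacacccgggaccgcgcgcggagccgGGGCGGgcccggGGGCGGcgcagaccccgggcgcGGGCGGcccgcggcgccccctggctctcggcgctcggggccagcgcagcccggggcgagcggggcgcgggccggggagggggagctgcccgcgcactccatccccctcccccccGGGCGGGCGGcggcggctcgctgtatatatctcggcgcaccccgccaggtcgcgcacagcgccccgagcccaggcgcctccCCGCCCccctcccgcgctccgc
KCNMA1, start inside the gene: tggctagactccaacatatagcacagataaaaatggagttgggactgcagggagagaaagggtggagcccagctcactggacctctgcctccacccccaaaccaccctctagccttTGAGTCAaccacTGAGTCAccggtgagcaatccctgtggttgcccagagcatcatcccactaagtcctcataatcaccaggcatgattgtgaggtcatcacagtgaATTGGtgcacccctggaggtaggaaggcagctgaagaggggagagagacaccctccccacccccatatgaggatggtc

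The motifs searched were CACGTG (the E-box), TCATGTG (of the M-box type), TGANTCA (of the activator protein type), TGACGT (of the cyclic AMP response type), GGGCGG (the GC box), CCAAT (bound by nuclear factor Y), TATAAA (the TATA box) and, for nuclear receptors, AGGTCA repeated after 1 base. Neighbouring GGGCGG matches can overlap, and TGACGT overlaps its own reverse in TGACGTCA. The KCNC4 and KCNH8 promoters held 4 and 5 GGGCGG matches. The main KCNMA1 promoter held 7, of which a pair overlaps. The KCNMA1 start inside the gene held none, and carried 2 TGANTCA matches and 1 CCAAT match instead. The KCNF1 promoter held TGACGT on both strands, and KCNN4 held 1 CACGTG and 1 GGGCGG. A match describes the letters and does not show that a factor binds.

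A smaller share of potassium channel promoters was marked than of promoters in general. The RefSeq table has 110 promoter windows for 72 of the 96 protein-coding KCN genes, and 32 of them (29.1%), from 31 genes, overlapped a region of the authors' deposited table. Over all 22199 windows of protein-coding genes the share was 65.8%. A gene can have several windows. Counted by gene, 31 of the 72 KCN genes and 10955 of all 15843 genes had a window in a region. Some of the 32 windows lay in regions that the authors' deposited table places away from the start, the farthest at 277794 bases (KCNMA1). Median GC content of the 32 overlapping KCN windows was 72.0%, against 59.7% in the 78 others. Over all genes it was 65.7% in overlapping windows and 53.3% in the others. Of the overlapping KCN windows, 26 (81.2%) held GGGCGG, against 38.5% of the KCN windows outside regions. Over all genes 70.0% of the overlapping windows held it, against 29.9% of the windows outside regions. The other motifs were compared between KCN windows and all windows without a test: CCAAT was in 35.5% against 34.7%, CACGTG in 7.27% against 8.34%, TATAAA in 8.18% against 9.47%, TGANTCA in 8.18% against 6.15%, TGACGT in 5.45% against 8.94% and TCATGTG in 3.64% against 2.32%. The repeated AGGTCA was in 0 of the KCN windows and in 0.0225% of all windows.

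Of the 96 protein-coding KCN genes in RefSeq, 13 had no region: KCNA1, KCNA3, KCNA6, KCNA7, KCNAB3, KCNE5, KCNG2, KCNH6, KCNJ9, KCNJ13, KCNJ14, KCNK16 and KCNMB2. Of the 84 symbols in the table, 83 matched RefSeq, and KCNE1B did not. The class of voltage-gated alpha subunits had regions at 34 of its 40 RefSeq genes, the auxiliary subunits at 12 (RefSeq lists 13, of which 2 had none), the inward rectifiers at 13 of 16, the 2-pore-domain channels at 14 of 15 and the calcium- or sodium-activated channels at 11 of 12. A start region was found at 11, 3, 5, 3 and 7 genes of these classes, 29 in all. The median gene had 4.5 regions, 14 genes had 1, and KCNMA1 had the most with 58, ahead of KCNT2 and KCNV1 with 38 each and KCNE1B and KCNRG with 24 each. The median fold change was 0.37 over the 287 regions that overlap their own RefSeq gene and 0.38 over the 353 that do not. Over the 115 and 102 tested ones among them it was 0.40 and 0.40 in the authors' deposited table.

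The KCN regions were small and of ordinary level. Their median width was 772.5 bases against 908 over all regions of the authors' deposited table. Median mean level was 10.9 against 12.3, with a range from 0.806 to 521. Per kb of region, the median level was 14.9 against 15.3. An adjusted p-value was present in the authors' deposited table for 217 KCN regions (33.9%), at 60 genes, against 40.0% of all regions. The other 24 genes had untested regions only, among them KCNJ4 and KCNH7.

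Fold changes of the KCN regions were mostly positive, as they were over the whole table. In the 217 tested regions, the median log2 fold change of the authors' deposited table was 0.40, with quartiles of 0.15 and 0.60 and a range from -1.18 to 1.26. Over all 36436 tested regions the median was 0.32, a ratio of 1.25, with quartiles of 0.15 and 0.50. Where the mean level reached 10 or more, 288 of 338 KCN regions (85.2%) were positive, against 84.1% of all regions. Among tested regions the order was the other way, with 85.7% of KCN regions and 87.3% of all regions positive. The positive offset of the whole table is thus part of the KCN values below. Above the median of all tested regions lay 122 of the 217 (56.2%).

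Of the 217 tested KCN regions, 9 were called in the authors' deposited table (4.15%), against 1.67% of all tested regions. They lay at 8 genes. Of these calls 8 were positive (background 1.65%) and 1 was negative (background 0.0192%). An unadjusted p-value under 0.05 was listed for 51 (23.5%), against 18.4% of all tested regions, and 2 of the 51 were negative. After all fold changes were centred on their median of 0.32 and the p-values recomputed from the deposited SE, 1 KCN region was called, the negative one at KCNC2 (background 0.124%), with an adjusted p-value of 0.0122. The 8 positive calls then had adjusted p-values from 0.234 to 0.759.

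**Figure D1:**
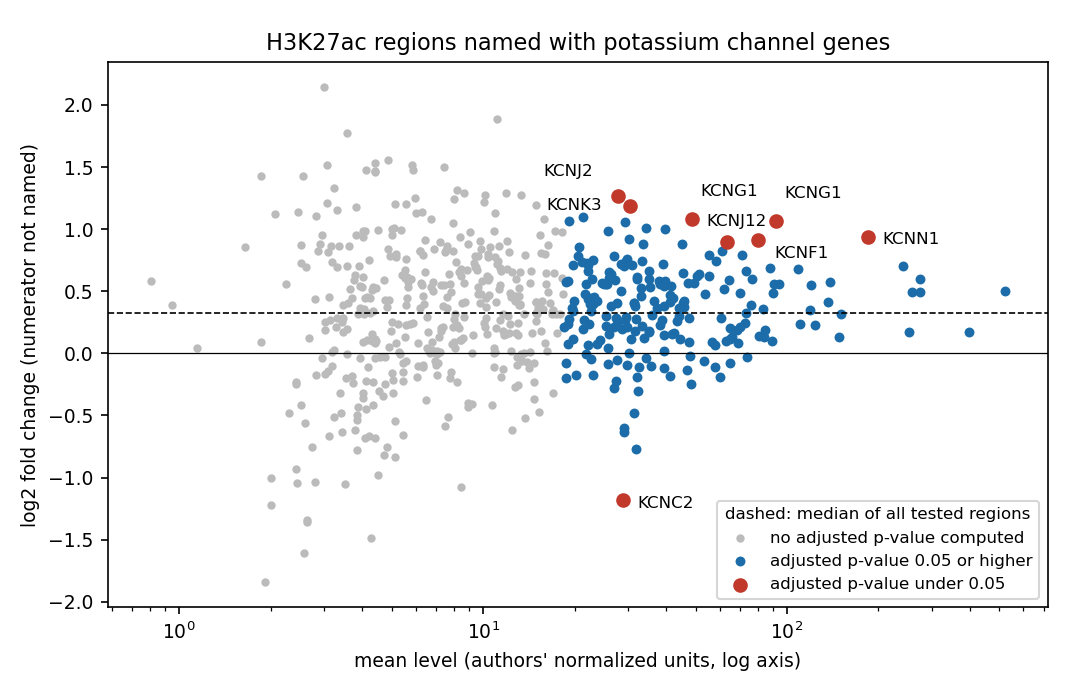
Log2 fold change (vertical axis, numerator not named) against mean level in the authors' normalized units (horizontal log axis) for 630 of the 640 regions named with potassium channel genes; grey points have no adjusted p-value, blue points one of 0.05 or higher and red points one under 0.05. The 8 red points are labelled by gene: 7 lie between 0.89 and 1.26, and KCNC2 lies at -1.18; the dashed line is the median of all tested regions, 0.32.

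Among voltage-gated alpha subunits, KCNG1 had 2 called regions, more than any other KCN gene. KCNG1 encodes a silent subunit that modifies the delayed rectifiers it assembles with. The region chr20:51032488-51037200, 9359 bases from the start and in no RefSeq gene, had a log2 fold change of 1.06 ± 0.23 (SE) and the lowest adjusted p-value of any KCN region in the authors' deposited table, 0.00277. It was one of the stronger regions, with a mean level of 92.2. The second call, chr20:51192432-51195102, lay 169303 bases away, also in no RefSeq gene. The authors' deposited table gives it 1.08 ± 0.27 at a mean level of 48.8, with an adjusted p-value of 0.0150. Another tested region on the same side, 104647 bases from the start, is listed at 1.01 ± 0.33 (adjusted p-value 0.0757, both as the authors' deposited table gives them). The KCNG1 start region, the one with the highest level per kb of all KCN starts (41.7), had 0.57 ± 0.23, and the farthest region, at 235208 bases, had 0.05 ± 0.38. Of the 5 tested KCNG1 regions, 3 thus lay above 1, and the start and the farthest region lay below them. That KCNG1 is the gene these distant regions act on was not tested.

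KCNF1, another silent modifier subunit, had positive values in all 9 of its regions, from 0.55 to 1.89. The called one was chr2:10934034-10937738, 22098 bases from the start and in no RefSeq gene, with 0.91 ± 0.26 (adjusted p-value 0.0402) at a mean level of 80.2 in the authors' deposited table. Other tested KCNF1 regions stood at 1.06 ± 0.35 (9126 bases from the start, adjusted p-value 0.0850), 1.06 ± 0.41 and 0.59 ± 0.34. The start region was narrow, 491 bases, with a mean level of 11.1, and its 1.89 ± 0.57 had no adjusted p-value. All 4 tested KCNF1 regions thus lay above the all-region median.

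KCNC2 held the only negative call among the KCN regions. It encodes a high-threshold, fast-deactivating subunit known from fast-spiking neurons. The region, chr12:74979391-74982167, lay 227293 bases from the start and 57911 bases beyond the RefSeq gene, in no other RefSeq gene. The authors' deposited table gives it -1.18 ± 0.33, a ratio of 0.442, with an adjusted p-value of 0.0311 and a mean level of 28.8. The other 2 tested KCNC2 regions were also on the negative side, at -0.63 ± 0.34 and -0.03 ± 0.30. Of the untested ones the lowest, -1.84 ± 1.12, lay 226162 bases from the start, next to the called region. The negative KCNC2 values lay 198183 bases or more from the start, and the nearer regions, both untested, had 0.57 ± 0.44 and 0.01 ± 0.55. KCNC2 was the single gene with at least 3 tested regions that had all of them at or below the all-region median.

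KCNC4, which encodes a subunit of the same high-threshold family, had positive values. It came closest to a call among start regions, with 1.00 ± 0.31 and an adjusted p-value of 0.0625. Its other tested region, 21846 bases away, had 0.68 ± 0.27. KCNH8, an ether-a-go-go family member, had 7 tested regions, all above the all-region median and from 0.34 to 0.88; its start region stands at 0.88 ± 0.29 (adjusted p-value 0.0862, both as the authors' deposited table gives them). KCNH1, of the same family and known from tumour cells, had the lowest value of all KCN start regions, 0.11 ± 0.29.

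KCNA10, a Shaker-family subunit, had a single region 35980 bases from its start, listed at -0.77 ± 0.33 (adjusted p-value 0.197, both as the authors' deposited table gives them). KCNQ1, the cardiac delayed rectifier subunit, had 7 tested regions from -0.20 to 0.42, with a median of 0.07. KCNV1, a silent modifier subunit, had 4 tested regions from 0.09 to 0.73, none called. They lay 394099 to 1684388 bases from its start. Over the whole class, 5 of 68 tested regions were called (7.35%, against 1.67% of all tested regions), 4 of them positive. The class median was 0.40 over 34 genes. Differences between this class and those below were not tested.

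The authors' deposited table holds no call among the 37 tested regions of auxiliary subunits of voltage-gated channels. Of all tested regions, 1.67% were called. An unadjusted p-value under 0.05 stood at 5 of the 37 (13.5%, against 18.4% of all tested regions). Their median of 0.37 lay near that of all regions. KCNIP1, a calcium-binding subunit of A-type channels, had values of both signs: its regions reached 0.79 ± 0.27 at 34887 bases from the start and -0.60 ± 0.34 at 112624 bases on the other side. KCNRG, a regulator that interferes with channel assembly, had 24 regions, of which 0 overlapped the gene. One of them, 55592 bases from its start, was the second widest KCN region, 14899 bases, with a mean level of 396 and 0.17 ± 0.20. KCNE4, a single-span subunit that damps several channels, had 0.20 ± 0.35 at its start and 0.74 ± 0.33 in a region 8279 bases away. KCNE1B had 24 regions, 11 of them within 50 kb of a ribosomal RNA gene on chromosome 21. KCNE1B is a near copy of KCNE1, as KCNJ18 is of KCNJ12, and how reads were placed between such copies is not given in the sources used here, so values at these genes are uncertain.

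Inward rectifiers had 2 calls among 36 tested regions (5.56%, against 1.67% of all tested regions) and a median of 0.41. KCNJ2, the strong rectifier of heart and muscle, had the largest fold change of all tested KCN regions, at chr17:71070805-71072832. The authors' deposited table lists this region at 1.26 ± 0.34 (adjusted p-value 0.0280), at a mean level of 27.8. It lay 902133 bases from the start, in no RefSeq gene, so the naming with KCNJ2 rests on distance alone. The KCNJ2 start region had 0.21 ± 0.27, and the 9 tested regions ran from -0.30 to 1.26 (median 0.22). The next highest tested value of KCNJ2 was 0.57 ± 0.30, and the 2 highest untested ones were 1.01 ± 0.77 and 0.99 ± 0.77. Whether the called region differs from the other KCNJ2 regions was not tested.

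KCNJ12, a further strong rectifier, was called at chr17:21368330-21371362, 4835 bases from the start and in no RefSeq gene. The authors' deposited table gives it 0.89 ± 0.26 (adjusted p-value 0.0465) and a mean level of 63.4. All 6 tested KCNJ12 regions lay between 0.41 and 0.89, above the all-region median. KCNJ18, its near copy, had 6 tested regions from 0.19 to 1.10, the highest being 1.10 ± 0.44 at 71972 bases from the start, with no call. KCNJ15 had 0.74 ± 0.34 and 0.86 ± 0.39 in its 2 tested regions. KCNJ16 pairs with other rectifiers in kidney. One of the 5 widest KCN regions (10371 bases) lay 199033 bases from the KCNJ16 start, with 0.17 ± 0.22. The 6 tested KCNJ16 regions reached 0.36 at most. The start regions of KCNJ11 and KCNJ8, the pore subunits of ATP-sensitive channels, were weak, with mean levels of 9.04 and 5.53, and were untested.

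**Figure D2:**
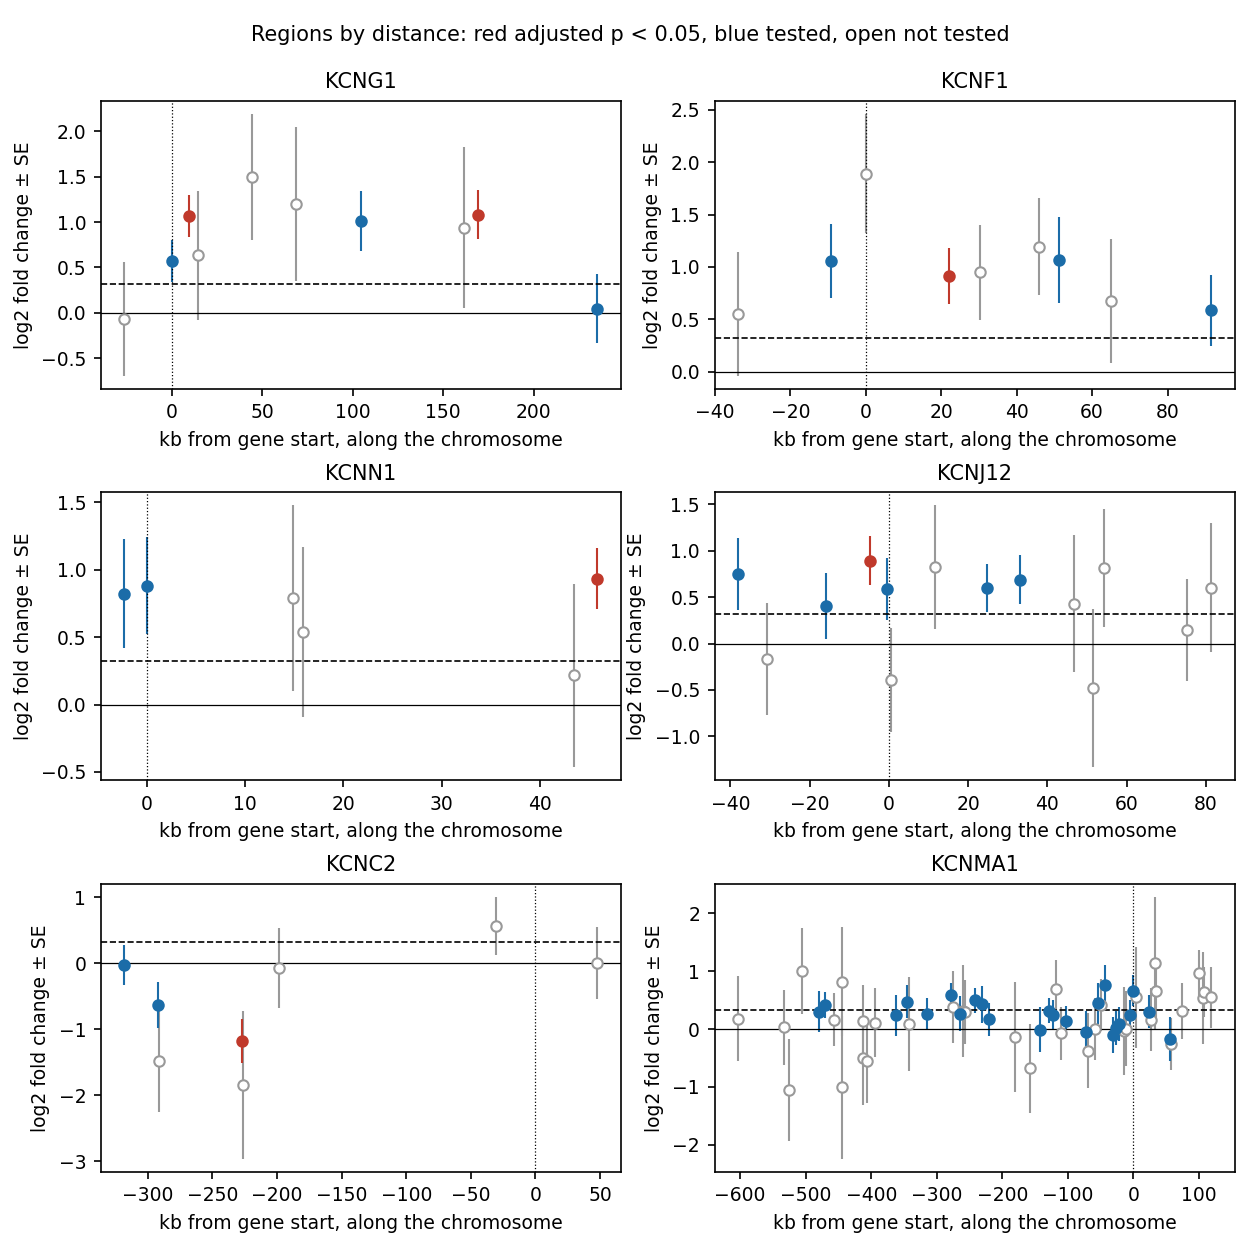
Log2 fold change ± SE of every region of KCNG1, KCNF1, KCNN1, KCNJ12, KCNC2 and KCNMA1 (vertical axes) by distance in kb from the gene start along the chromosome (horizontal axes); red points were called, blue points were tested and not called, open points have no adjusted p-value, and the dashed line is the median of all tested regions. KCNF1 values run from 0.55 upward, the 3 tested KCNC2 values all lie below 0, and KCNMA1 values scatter around a tested median of 0.26.

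The 2-pore-domain channels had 1 call among 20 tested regions (5%, against 1.67% of all tested regions) and the highest class median, 0.57. KCNK3 encodes an acid-sensitive background channel. Its called region, chr2:26695634-26697572, lay inside the gene, 2884 bases from the start, and stands at 1.18 ± 0.34 (adjusted p-value 0.0390, both as the authors' deposited table gives them). A wider KCNK3 region of mean level 241 had 0.71 ± 0.30, and the third tested one 0.42 ± 0.38. The start regions of KCNK1, KCNK5 and KCNK6 had 0.64 ± 0.28, 0.56 ± 0.32 and 0.70 ± 0.38, none called. The other 4 tested KCNK5 regions ran from -0.25 to 0.15. KCNK2, a stretch-sensitive background channel, had tested regions on both sides of zero, from -0.48 ± 0.34 to 0.62 ± 0.28.

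The calcium- or sodium-activated channels had 1 call among 56 tested regions (1.79%, against 1.67% of all tested regions). Their median was 0.33 beside the 0.32 of all regions. KCNN1 encodes a small-conductance calcium-activated channel. Its call, chr19:17997145-18002763, had 0.93 ± 0.23 (adjusted p-value 0.0104) and the highest mean level of the KCN calls in the authors' deposited table, 184. This region overlaps KCNN1, but 45853 bases from its start. It also covers the start of ARRDC2, with which the table lists it at distance 0, so it cannot be assigned to 1 gene. The KCNN1 start region had 0.88 ± 0.36 and the region 2309 bases from the start 0.82 ± 0.40, both above the all-region median and not called. KCNN4, the intermediate-conductance channel of blood and epithelial cells, had the KCN region with the highest mean level, 521. It was also the widest, at 15875 bases, had 0.50 ± 0.21 in the authors' deposited table and covers the start of SMG9 as well. The KCNN4 start region had 41.1 units per kb and 0.50 ± 0.30 in the authors' deposited table. Between 0.24 and 0.56, all 4 tested KCNN4 regions were positive and uncalled. KCNN3 had 0.52 ± 0.29 at its start and 0.11 to 0.72 over 6 tested regions.

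KCNMA1 encodes the pore of the large-conductance channel opened by calcium and voltage. It had 58 regions, 46 of them overlapping the gene, and none of the 24 tested ones was called in the authors' deposited table. Their values ran from -0.17 to 0.76 with a median of 0.26, 20 of 24 positive and 8 above the all-region median. The start region had 0.66 ± 0.27. The region over the start inside the gene, 11492 bases wide, had 0.60 ± 0.21 with an adjusted p-value of 0.104. The next widest, 10940 bases, had 0.49 ± 0.21. Between these and the main start, tested regions ran from -0.10 ± 0.31 at 31893 bases to 0.76 ± 0.35 at 43464 bases. KCNT2, a sodium-activated channel, had 38 regions, 13 of them overlapping the gene. Its 11 tested regions ran from -0.11 to 0.71, with 0.56 ± 0.23 at its start. Its median was 0.18. KCNMB4, the neuronal auxiliary subunit of the KCNMA1 channel, had 0.78 ± 0.38 at its start.

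**Figure D3:**
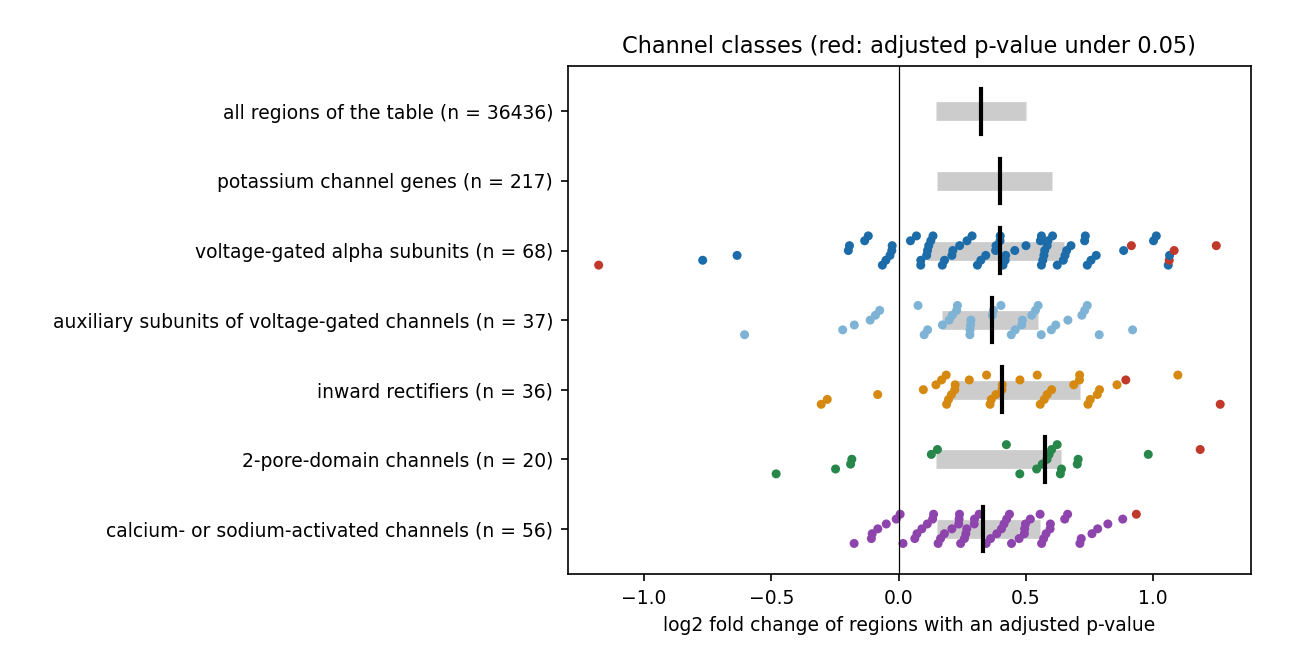
Log2 fold change of tested regions (horizontal axis) in each channel class; points are regions, red where called, grey bars span the quartiles and black bars mark the median, with the potassium channel genes together and all regions of the table in the top rows. Class medians run from 0.33 to 0.57 and the quartiles of all classes overlap.

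All 29 KCN start regions were positive in the authors' deposited table, from 0.11 to 1.89. Of the tested start regions of all genes, 98.1% were positive. Of these 29, 25 were tested and none was called. Above the all-region median lay 21 of the 25 (84.0%), against 56.2% of all tested start regions. The median of the 25 was 0.57, against 0.35 over the 9996 tested start regions of all genes, of which 86 (0.860%) were called. Among the 25, 12 had an unadjusted p-value under 0.05 (48.0%), against 19.2% of all tested start regions. No negative value was among the 12, nor among the 1922 such start regions of all genes. KCN start regions were weaker than start regions in general, with a median mean level of 39.6 against 83.7, or 20.8 against 25.3 per kb. Within the middle range of KCN start levels, 31.3 to 62.2, the 13 KCN regions had a median of 0.62 and the 2230 start regions of all genes one of 0.43. In that range 7 of the 13 (53.8%) and 470 of the 2230 (21.1%) had an unadjusted p-value under 0.05. The difference between KCN starts and all starts, and the part of level in it, was not tested.

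**Figure D4:**
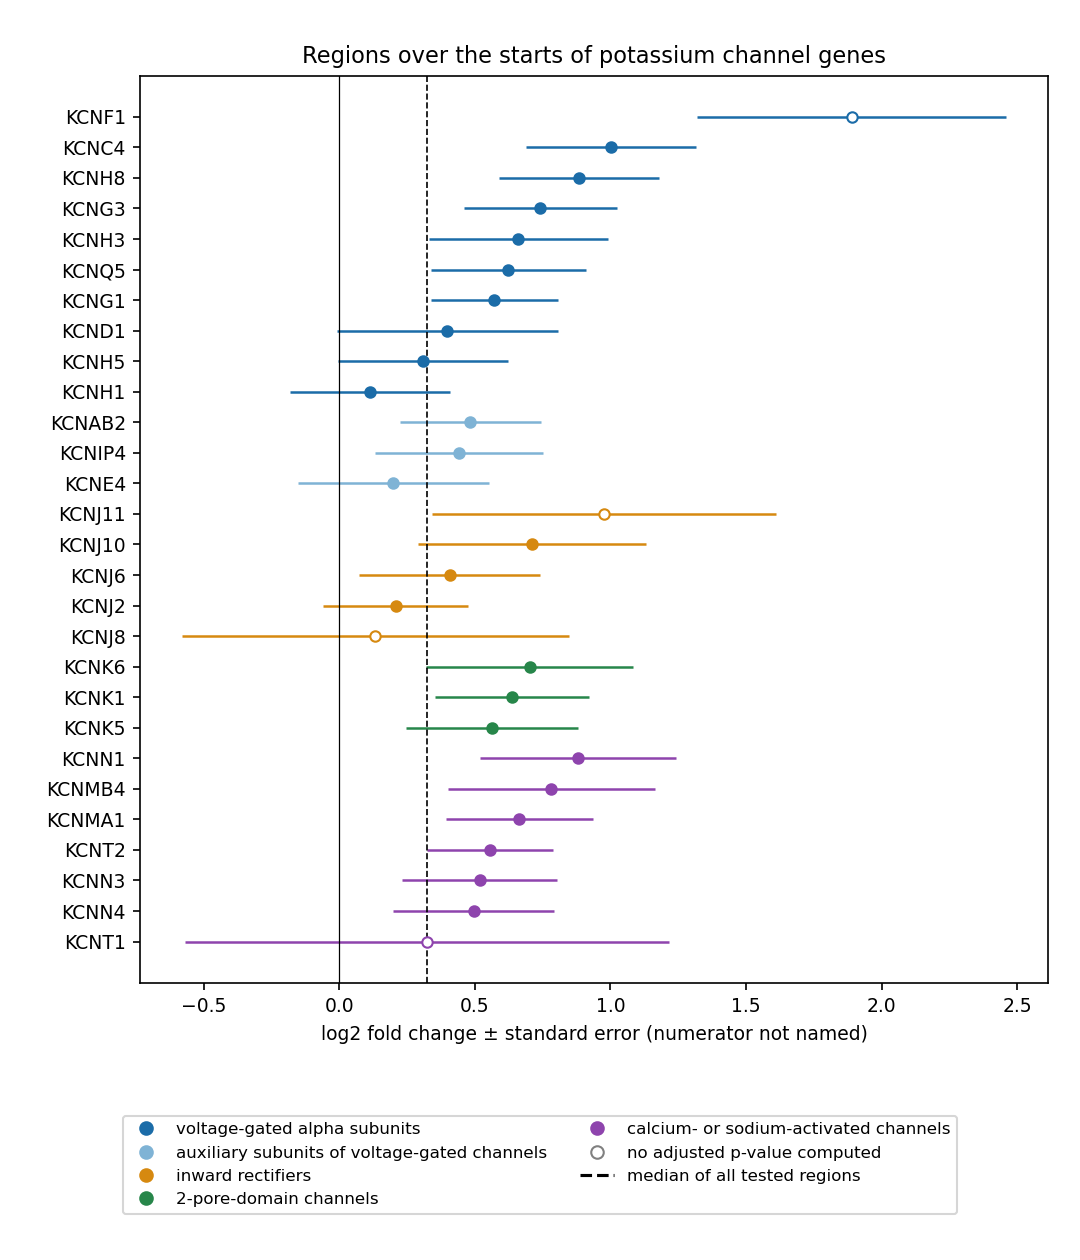
Log2 fold change ± SE (horizontal axis) of the region over the start of 28 of the 29 potassium channel genes with such a region (vertical axis), coloured by class; open points have no adjusted p-value and the dashed line is the median of all tested regions. Every point lies above 0, from 0.11 at KCNH1 to 1.89 at KCNF1.

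All 9 calls lay away from the start of the KCN gene named with them. Of these, 1, at KCNN1, covers the start of ARRDC2. In the whole table, 522 of the 608 calls lay away from the start of every gene listed with them. The 9 were among 192 tested KCN regions away from KCN starts (4.69%). For all genes the share was 522 of 26440 (1.97%), counting only regions away from every listed gene's start. By the same definitions, the median away from starts was 0.36 for KCN regions and 0.31 for all. By distance, 3 of 21 tested KCN regions within 10 kb of a start were called, 3 of 73 at 10 to 100 kb, 2 of 79 at 100 to 500 kb and 1 of 19 farther away. These bins use the distance to the KCN gene, and those over all genes use the nearest gene listed with a region. Over all genes, 2.00%, 2.16%, 1.78% and 1.07% of tested regions in these bins were called. The medians of these bins in the authors' deposited table were 0.58, 0.41, 0.24 and 0.54, against 0.35, 0.32, 0.26 and 0.27 over all regions. The bin farthest out is small, and 6 of its 19 tested KCN regions are named with KCNE1B, whose values are uncertain. Of the 9 calls, 3 overlapped their own gene and 6 did not.

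Of 31 genes with at least 3 tested regions, 16 had all of them positive. In 6 of the 31, among them KCNF1, KCNH8, KCNJ12, KCNK3 and KCNN1, every tested region lay above the all-region median of the authors' deposited table, in KCNC2 none did, and in 24 the regions lay on both sides. Some KCN regions lie over other genes too: 12 were listed with another gene, 6 of them at its start, and without these 12 there were 8 calls.

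A list of other genes linked to potassium handling gave no call. The 33 genes were for accessory subunits, cyclic nucleotide-gated channels, the sodium-potassium pump, a further channel and cation-chloride transporters, not all of which carry potassium. Of the 33, 26 had regions in the authors' deposited table. Of 45 tested regions 0 were called, against 1.67% of all tested regions, and the median was 0.26. An unadjusted p-value under 0.05 stood at 10 of the 45 (22.2%, against 18.4% of all tested regions), 1 of them negative. Calcium channel genes (CACN) had 0 calls in 38 tested regions, 13 unadjusted p-values under 0.05 (34.2%) and a median of 0.50. Sodium channel genes (SCN) had 0 calls in 12 with a median of 0.31, and chloride channel genes (CLCN) 0 in 9 with a median of 0.40. With so few tested regions, a count of 0 in these families does not show that they differ from the KCN genes, which was not tested.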

How the data were processed

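H3K27ac was measured by chromatin immunoprecipitation sequencing in 4 libraries, grouped by the labelled treatment. The submitters' processing notes name Trim Galore, cutadapt, FastQC, Bowtie2, Picard, MACS2, featureCounts, DESeq2, bedtools 2.29.1 and the build hg38, without roles or order. How peaks were merged, whether reads were extended and which annotation gave the genes are not given in the sources used here. The 1 deposited table holds the authors' comparison. Its mean level, per the file headers, is the authors' normalized signal averaged over libraries, and levels of different regions were compared per kb. Per the file headers, log2 fold changes and SE come from the authors. The authors' score (the statistic) matched the fold change over its SE (largest gap 3.38e-14). Each deposited p-value matched a two-sided normal tail of the score (largest gap 2.89e-15). The deposited adjusted p-value is 1 wherever the mean level is 18.4 or lower. Benjamini-Hochberg adjustment over the others returned the authors' deposited values to within 1.58e-14, so the 1 was read as not computed.

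Regions listed with several genes were counted once. With no values of single libraries, the planned count test was not possible, and the authors' comparison was described instead; 0 columns of single libraries were left out. Gene overlap and promoter windows came from RefSeq tables of GRCh38.p14. Computation used Python 3.11.15, pandas 2.3.3, numpy 2.4.6, scipy 1.17.1 and matplotlib 3.10.9, and the code was tested on simulated data. Genes were named where a region was called, was among the 8 largest or 8 smallest tested fold changes, the 6 highest start levels per kb or the 5 widest regions, or where the gene was among the 5 with the most regions. Results of some single genes are not reported here, though their regions are in all counts and medians, and the plots of single genes leave them out. Start regions and the other genes given beside them were chosen after their values were seen. Members and lists were chosen with earlier results of these data known. Alternatives covered the threshold, the adjustment, centring, level filters, 1 region per gene and the width of the start window.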

Additional observations from a re-analysis of the deposited data

How the results depend on the processing

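From 9 KCN calls, the number went to 1 (KCNG1) with the threshold at 0.01, to 3 when p-values were adjusted over all distinct regions (KCNG1 at both regions and KCNN1), to 1 after centring on the median of all tested regions (KCNC2) and to 0 with 1 region per gene, the one nearest the start, adjusted anew. Of the 38 tested KCN regions so chosen, 2 were among the 9 calls, 16 had an unadjusted p-value under 0.05 in the authors' DESeq2 comparison, and the lowest adjusted p-value was 0.0529. The share of unadjusted p-values under 0.05 over all genes was not computed for this choice of regions. The count was 6 for changes no smaller than 1 on the log2 scale, 8 without KCNJ12, KCNJ18, KCNE1 and KCNE1B, 8 without regions listed with another gene (both chosen after seeing the data), and 9 over table lines, at a mean level of at least 10 and without KCNMA1. For these alternatives, the share called over all regions was computed only after centring (0.124%). Whether the other counts follow the whole table was not tested. Of the 9 calls, 8 lost significance after centring and 6 when adjusted over all distinct regions. Neither setting could reverse the direction of a call, so direction was not tested by them. Centring took 0.32 from every fold change, while the positive calls were 0.89 or higher and the negative one was -1.18. The adjustment over all distinct regions left the fold changes as they were.

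The median of 0.40 became 0.49 at a mean level of at least 100 (all regions 0.31) and 0.55 with 1 region per gene (all regions 0.35), and lay between 0.37 and 0.42 under the other settings tried. Few KCN regions reach a mean level of 100, and the 0.49 is the value of 1 KCNMA1 region, 10940 bases wide. The share of positive regions, 85.2%, was 78.1% with no filter (all regions 73.7%) and 85.7% in tested regions only (all regions 87.3%). Genes with a region near the start numbered 29 at distance 0, 43 within 1000 bases and 59 within 10000 bases. No paired analysis was possible because libraries have no values of their own in the table. Neither leaving out a library nor another normalization could be run for that reason, and precision is known only through the deposited SE, with a median of 0.33 in tested and 0.67 in untested KCN regions.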
